A study of Rattus norvegicus with 12 samples.

Results

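The receptors through which serotonin, dopamine, noradrenaline, histamine, acetylcholine and adenosine act on cortical cells were followed in the parietal cortex of aged and young rats. They were chosen by gene symbol alone, as the serotonin (Htr), dopamine (Drd), alpha- and beta-adrenergic (Adra, Adrb), muscarinic (Chrm), nicotinic (Chrn), histamine (Hrh) and adenosine (Adora) receptor genes of the array's annotation, and the rule itself uses no measured value. This gave 56 of the 14225 genes with a single symbol on the array, represented by 77 probe sets, and 46 of the 56 were bright enough to be tested among 13260 genes. No receptor gene differed between aged and young cortex at an adjusted p under 0.05. The 32 that were bright in every rat had log2 fold changes between -0.33 and 0.28 on their brightest probe sets.

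The study compared 6 aged male F344 rats (21 to 23 months) with 6 young ones (3 to 5 months). F344 is an inbred strain widely used in work on ageing. Every rat of both groups carried an implanted telemetry device for sleep recording, had been trained in the Morris water maze, a test of spatial memory, and was killed after its probe trial, so no group stands for untrained cortex. RNA of the parietal cortex of each rat was hybridised to 1 Affymetrix rat expression array. The labels give the tissue as parietal cortex in the titles and as frontal cortex in another field.

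Of the 56 genes, 38 encode G protein-coupled receptors. These act through Gi, which lowers cyclic AMP, or its relative Go, through Gs, which raises it, or through Gq, which mobilises calcium. The other 18, the nicotinic receptor subunits with Htr3a and Htr3b, form ion channels. In the cortex the transmitters arrive mainly along axons from small nuclei of the brainstem, hypothalamus and basal forebrain, which set arousal and attention. Adenosine is formed locally and acts as a sleep-promoting signal.

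A value is the deposited signal intensity of a probe set, on a linear scale. Differences are given as log2 fold changes of aged over young rats with their standard errors (SE) from limma, p-values are two-sided, and adjusted p-values are Benjamini-Hochberg values over all 13260 genes. The cutoff is 4.3 on the log2 scale, a signal of 19.7, and a gene was tested where its brightest probe set exceeded it on at least 3 of the 12 arrays. The cutoff was taken from the methods, which set it on gcRMA signals, and it may not carry over to the deposited values, of which 84.3% to 87.1% exceeded it on the arrays of aged rats and 83.3% to 85.9% on those of young rats. Signals of different probe sets are not on a common scale, so levels are compared between rats and not between genes. The 12 arrays had median signals of 167.9 to 194.3 in aged rats and 161.6 to 171.9 in young rats. The arrays of aged rats 2 and 6 had the lowest mean correlations with the other arrays, 0.945 and 0.950, against 0.952 to 0.957 for the other 10. Without these 2 arrays, 0 receptor genes and 1 of all genes tested had an adjusted p under 0.05. Markers of neurons were above the cutoff on all 12 arrays, with a summed signal of 66684 to 72263 in aged rats and 66876 to 79947 in young rats. Of the 11 neuron markers tested, 2 had log2 fold changes above 0 and 9 below, with a median of -0.080. Their part in the receptor values was not tested.

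The first question was how many receptor genes differed with age. At an adjusted p under 0.05 limma called 0 of the 46, where 0.0528% of all genes tested passed, and the smallest adjusted p among the receptors was 0.420, for Htr1d. At an unadjusted p up to 0.05, 1 receptor gene (Htr5b) was higher in aged rats, where 6.49% of all genes were, and 1 (Htr1d) was lower, where 2.62% were. At an unadjusted p up to 0.01 there were 0, where 1.92% of all genes were higher, 0.603% lower and 2.52% either. A test of each gene on its own, as in the methods, gave 0 receptor genes after adjustment and 1 at an unadjusted p up to 0.05, where 9.14% of all genes had such a p. The groups overlapped for each of the 46 genes, while they did not overlap for 0.777% of all genes. The log2 fold change lay above 0 in 27 of the 46 genes (58.7%), close to the 56.9% of all genes, and in 22 of the 46 after quantile normalization or median centring of the arrays. The median log2 fold change was 0.063 over the receptor genes and 0.024 over all genes. The codes of the samples form a lower and a higher series whose meaning the labels do not give. Within the lower one the receptor median was 0.027 and within the higher one 0.088. At an adjusted p under 0.05, 0 of all genes tested were called in each, receptors included.

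**Figure D1:**
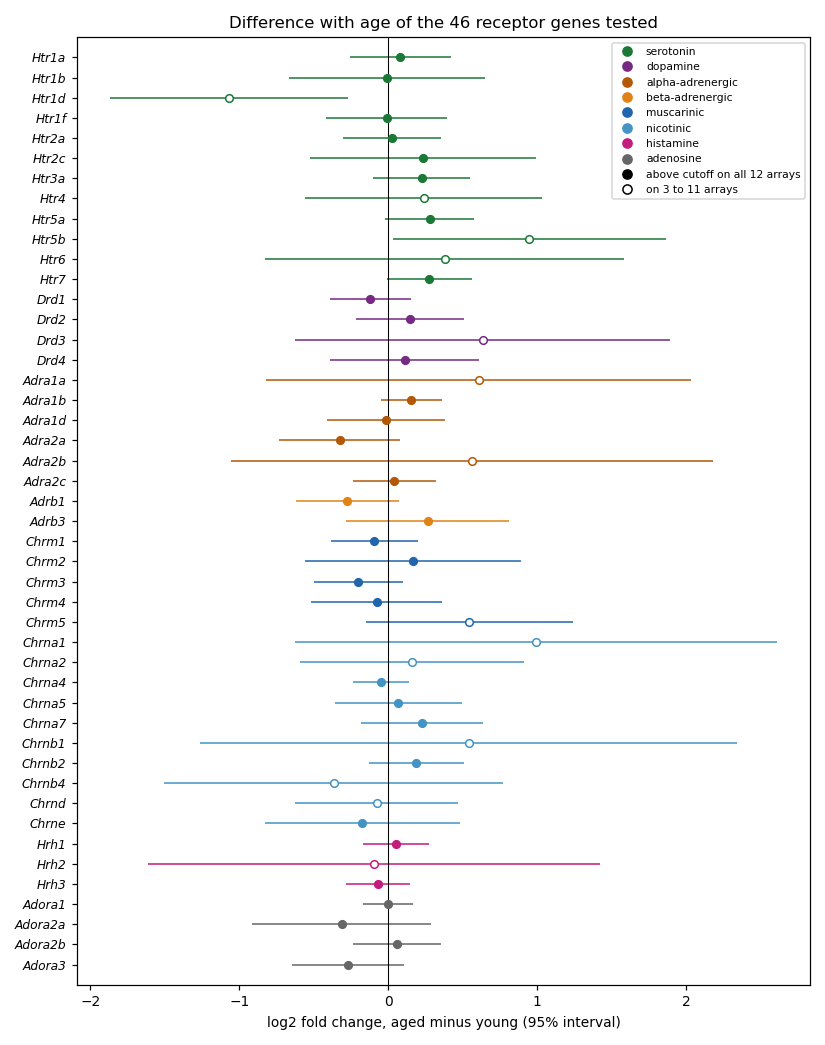
Log2 fold change of aged over young rats (x axis) with 95% intervals for the 46 receptor genes tested, grouped and coloured by receptor family; filled points were above the cutoff on all 12 arrays, open points on 3 to 11. Only the intervals of Htr1d, on the left, and Htr5b, on the right, do not include 0, and both are open points.

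The values spread more widely among dim genes. For the 32 genes above the cutoff on all 12 arrays the log2 fold changes ran from -0.33 to 0.28, with 17 above 0 and 15 below, and a median of 0.034. The 14 genes above it on 3 to 11 arrays had 10 values above 0 and 4 below, and a median of 0.46. All genes in that dim range had 65.4% of values above 0 and a median of 0.21.

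Serotonin receptors made up 14 of the 56 genes, and 12 were tested, 9 with values above 0 and 3 below (median 0.23). The 4 receptor genes with the smallest p-values of all 46 were in this family, which held 12 of the 46, and none passed adjustment. Among them Htr1d and Htr5b entered the test only through the group where each was higher, and they differed in opposite directions.

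Htr1d, a Gi-coupled receptor known as an autoreceptor on serotonin terminals and as the target of the triptans, had signals with a lowest, median and highest value of 5.25, 10.0 and 14.2 in aged rats and 9.28, 22 and 32.0 in young rats. All 6 aged rats were below the cutoff and 4 young rats were above it, so the gene entered the test only through the young group, and its difference carries that selection. The log2 fold change was -1.07 (SE 0.365, 95% interval -1.87 to -0.27, adjusted p = 0.420). The interval is not read as a bound on the fold, since the young mean was itself at 4.25 on the log2 scale, below the cutoff.

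Htr5b, a little-studied relative of Htr5a, had the opposite pattern. Its signals were 21.1, 26.5 and 80.8 (lowest, median, highest) in aged rats, all above the cutoff, and 8.61, 15.6 and 42.5 in young rats, of which 2 were above it. Htr5b thus entered the test only through the aged group, and its difference carries that selection. Only 1 aged rat exceeded the whole young range, and 5 young rats were below all aged ones. Its log2 fold change was 0.95 with an SE of 0.420 (adjusted p = 0.530).

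Htr7 and Htr5a were bright in every rat. Htr7, a Gs-coupled receptor linked to circadian rhythm and sleep, had signals of 151, 160.5 and 175 in aged rats and 101, 141 and 187 in young rats. All 6 aged rats were above 5 of the young ones and below the highest, and the log2 fold change was 0.28 (SE 0.131, 95% interval -0.010 to 0.56, adjusted p = 0.556). Htr5a, which couples to Gi, had signals of 94.8, 126 and 163 in aged rats and 91.0, 109 and 129 in young rats; 2 aged rats were above all young ones, and the log2 fold change was 0.28 (SE 0.137, adjusted p = 0.569).

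The cation channel subunit Htr3a, in the cortex a marker of a class of inhibitory interneurons, had signals of 124, 154 and 228 in aged rats and 113, 137 and 152 in young rats, with 3 aged rats above all young ones (log2 fold change 0.22, SE 0.148, adjusted p = 0.680). The interneuron marker list had 1 of its 8 tested genes above 0 and 7 below, with a median of -0.11; its part in the value of Htr3a was not tested.

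Htr1a, the Gi-coupled receptor that dampens the firing of pyramidal cells, had signals of 99.4, 119 and 199.8 in aged rats and 106, 118 and 149.5 in young rats (log2 fold change 0.082, SE 0.155). Htr2a, the Gq-coupled receptor at which psychedelic drugs act, had 246, 304 and 508 in aged rats and 293, 309 and 339 in young rats. Its log2 fold change was 0.027, with a 95% interval of -0.30 to 0.36. For Htr2a 2 aged rats were above and 3 below the whole young range, around nearly the same median.

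Htr2c, a Gq-coupled receptor of neurons and also of the choroid plexus, had the largest SE of the 32 genes above the cutoff on all 12 arrays. Its signals were 508, 1284 and 1790.5 in aged rats and 622, 851 and 1779 in young rats, and its SD on the log2 scale was 0.65 in aged rats and 0.64 in young rats. The log2 fold change of 0.23 was therefore uncertain (SE 0.348, 95% interval -0.53 to 0.99). The summed signal of choroid plexus markers ranged over 419 to 889.5 in aged rats and 377 to 1771 in young rats, and its part in Htr2c was not tested.

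Of the other serotonin receptors, Htr4 and Htr6, both Gs-coupled, had log2 fold changes of 0.24 and 0.38 with SEs of 0.364 and 0.551. The Gi-coupled Htr1b and Htr1f had values of -0.0088 and -0.012 (SE 0.300 and 0.186). Htr2b and Htr3b were not tested: Htr2b was above the cutoff on 1 array and Htr3b on 2.

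**Figure D2:**
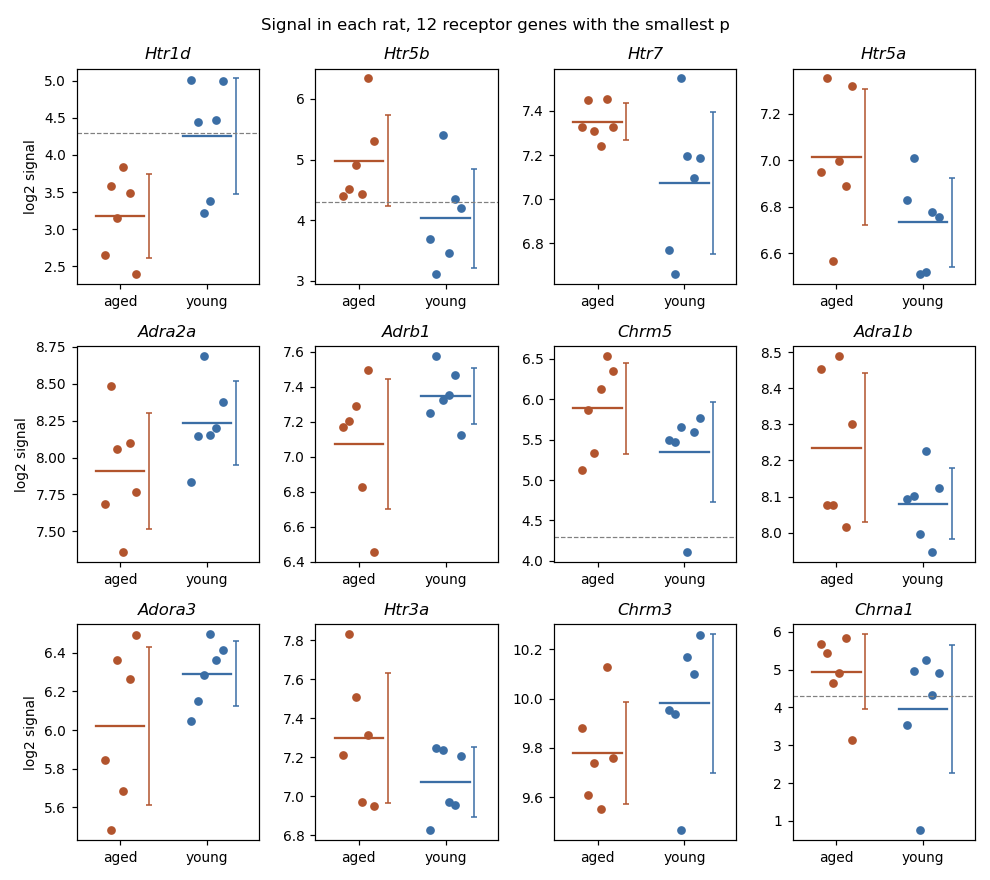
Log2 signal (y axis) of each rat for the 12 receptor genes with the smallest p-values, aged rats on the left and young rats on the right of each panel; lines are means, bars SDs (n = 6 each), and the dashed line is the cutoff of 4.3. The groups overlap in each panel, and the 6 aged rats lie below the cutoff for Htr1d.

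Dopamine receptors are 5 genes, of which 4 were tested, 3 with values above 0 and 1 below (median 0.13). Drd1, the Gs-coupled receptor through which dopamine acts on cortical pyramidal cells, had signals of 252, 317 and 424 in aged rats and 299, 347 and 389 in young rats. In aged rats 1 value was above and 3 were below the young range, and the log2 fold change was -0.12 (SE 0.124, 95% interval -0.39 to 0.15, adjusted p = 0.823). Drd2, the Gi-coupled receptor blocked by antipsychotic drugs, had signals of 70.1, 102 and 147 in aged rats and 81.6, 93.4 and 108 in young rats. Here 2 aged rats were above and 1 was below all young ones (log2 fold change 0.15, SE 0.166, 95% interval -0.21 to 0.51).

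The other Gi-coupled members, Drd3 and Drd4, had log2 fold changes of 0.63 and 0.11, with SEs of 0.575 and 0.228. Drd3 was above the cutoff in 4 aged and 4 young rats. Drd5, the other Gs-coupled dopamine receptor, was above it in 1 aged and 1 young rat and was not tested. Drd1, Drd2 and Adora2a are much more abundant in striatum than in cortex. The summed signal of striatal markers was 2919 to 3546 in aged rats and 2928 to 3518 in young rats, with 3 of 6 genes above 0 and 3 below.

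Adrenergic receptors answer to noradrenaline, which reaches cortex from the locus coeruleus. All 6 alpha-adrenergic genes were tested, with 4 values above 0 and 2 below (median 0.10), and both beta-adrenergic genes, with 1 above and 1 below. Adra2a, the Gi-coupled receptor that restrains noradrenaline release and also acts on cortical spines, had signals of 164, 242 and 359 in aged rats and 229, 289.8 and 412 in young rats. In 3 aged rats it was below all young ones, and the log2 fold change was -0.33 (SE 0.186, 95% interval -0.73 to 0.081, adjusted p = 0.636).

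Adrb1, the Gs-coupled beta receptor, had signals of 87.6, 146 and 180.4 in aged rats and 139, 162 and 191 in young rats. The lowest 2 aged rats were below all young ones, and the other aged rats lay within the young range (log2 fold change -0.28, SE 0.157, 95% interval -0.62 to 0.069, adjusted p = 0.636). Adra1b, a Gq-coupled receptor, had 259, 293 and 359 in aged rats and 247, 274 and 299.6 in young rats, with 3 aged rats above all young ones. This gave a log2 fold change of 0.16 (SE 0.0941, adjusted p = 0.656).

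The Gi-coupled Adra2c and the Gq-coupled Adra1d had log2 fold changes of 0.041 and -0.015 (SE 0.128 and 0.180). Adrb3, best known from fat tissue, had a value of 0.27 (SE 0.250). The dim genes Adra1a and Adra2b, above the cutoff on 5 and 7 arrays, had larger but uncertain values of 0.61 and 0.56 (SE 0.653 and 0.741). Adra1a was above it in 3 aged and 2 young rats. It thus entered the test only through the aged group, and its difference carries that selection.

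Muscarinic receptors carry the slow actions of acetylcholine, and all 5 were tested, with 2 values above 0 and 3 below (median -0.076). Chrm1, the main Gq-coupled muscarinic receptor of cortical pyramidal cells, had signals of 116, 152 and 196 in aged rats and 140.4, 166 and 173 in young rats, with 2 aged rats above and 3 below the young range. The difference was a log2 fold change of -0.092 (SE 0.133, 95% interval -0.38 to 0.20). Chrm3, also Gq-coupled, had signals of 751, 861 and 1118 in aged rats and 707, 1045 and 1224 in young rats, the aged values lying within the young range (log2 fold change -0.20, SE 0.137, adjusted p = 0.686).

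Chrm5 is the third Gq-coupled member and is best known from dopamine neurons. It had signals of 34.8, 64.3 and 92.6 in aged rats and 17.2, 46.8 and 54.4 in young rats, and 4 aged rats were above all young ones. Its log2 fold change was 0.54 (SE 0.318, 95% interval -0.15 to 1.24, adjusted p = 0.644), and it was 0.29 without young rat 4, the lowest of the 12. The Gi-coupled Chrm2 and Chrm4, which include the autoreceptor of cholinergic terminals, had values of 0.17 and -0.076 (SE 0.332 and 0.201).

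Nicotinic receptor subunits assemble into cation channels, and 10 of 16 were tested, 6 with values above 0 and 4 below (median 0.11). Chrna4 and Chrnb2 form the main high-affinity nicotine receptor of the brain. Chrna4 had signals of 209, 241 and 254 in aged rats and 213, 242 and 293 in young rats, with a log2 fold change of -0.049 (SE 0.0849, 95% interval -0.23 to 0.14). Chrnb2 had 52.6, 59.6 and 91.9 in aged rats and 43.6, 56.9 and 64.7 in young rats, with 2 aged rats above all young ones and a log2 fold change of 0.19 (SE 0.145, 95% interval -0.13 to 0.51).

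Chrna7, the subunit of the calcium-permeable channel that binds bungarotoxin, had signals of 112, 167 and 221 in aged rats and 104, 144 and 191 in young rats. In 2 aged rats it was above all young ones, and the log2 fold change was 0.22 (SE 0.188, 95% interval -0.19 to 0.63). Chrna5, an accessory subunit, had a value of 0.069 (SE 0.196).

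Subunits of the muscle receptor ranged between Chrne, above the cutoff on all 12 arrays, and Chrng, the fetal subunit, below it on every array. Chrna1 had signals of 8.87, 37.0 and 57.2 in aged rats and 1.68, 25.0 and 38.5 in young rats, above the cutoff in 5 aged and 4 young rats, and its log2 fold change of 0.99 had an SE of 0.740 (adjusted p = 0.721). Chrnb1, Chrnd and Chrne had values of 0.54, -0.077 and -0.17 (SE 0.825, 0.250 and 0.299).

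The neuronal subunits Chrna2 and Chrnb4 had values of 0.16 and -0.37 (SE 0.344 and 0.520). Chrna9 and Chrna10, known from hair cells of the inner ear, and Chrnb3 were below the cutoff on every array. Chrna6, known from dopamine and visual pathways, was above it on 1 array and Chrna3, the main subunit of autonomic ganglia, on 2, and neither was tested.

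Histamine receptors numbered 4, of which 3 were tested, 1 with a value above 0 and 2 below (median -0.068). Hrh3, the Gi-coupled receptor that limits release of histamine and other transmitters, had signals of 1278, 1641 and 1994 in aged rats and 1511, 1691 and 1892 in young rats. The aged range extended past the young one on both sides (log2 fold change -0.068, SE 0.0996, 95% interval -0.29 to 0.15). Hrh1, the Gq-coupled receptor through which sedating antihistamines act, had a value of 0.052 (SE 0.10), and Hrh2, Gs-coupled and above the cutoff on 3 arrays, had -0.10 (SE 0.694). Hrh4, known from blood cells, was below the cutoff on every array.

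Adenosine receptors were all 4 above the cutoff on all 12 arrays, with 1 value above 0 and 3 below (median -0.14). Adora1, the Gi-coupled receptor through which adenosine quiets cortical neurons, had the narrowest interval of the 46 genes. Its signals were 524, 567 and 657 in aged rats and 506, 586 and 662 in young rats, with means of 585 ± 52.6 in aged rats and 586 ± 49.5 in young rats (SD, n = 6 each). All aged values lay within the young range, and the log2 fold change was -0.0032 (SE 0.0765, 95% interval -0.17 to 0.16).

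Adora3, a Gi-coupled receptor found mainly on glial and immune cells, had signals of 44.6, 67.2 and 90.0 in aged rats and 66.0, 80.1 and 90.3 in young rats, with 3 aged rats below all young ones. Its log2 fold change was -0.27 (SE 0.171, 95% interval -0.64 to 0.10, adjusted p = 0.667). The microglial markers ran the other way, with 10 of 11 genes above 0, a median of 0.29 and a summed signal of 5410.0 to 10587 in aged rats and 4726 to 6441 in young rats. A probe set shared with Tmigd3 and left out of the test had a median signal of 15.8 in aged rats and 4.76 in young rats, both below the cutoff. In tissue RNA, a change in the number of cells of a type and a change in RNA per cell cannot be told apart. The Gs-coupled Adora2a, the site at which caffeine promotes waking, and Adora2b had values of -0.31 and 0.057 (SE 0.275 and 0.135).

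Grouped by coupling instead of transmitter, the medians lay close together. The 17 Gi-coupled genes tested had a median of 0.041 (9 above 0, 8 below), the 9 Gq-coupled genes 0.052 (6 above, 3 below) and the 9 Gs-coupled genes 0.057 (5 above, 4 below). The 11 channel subunits had a median of 0.16 (7 above, 4 below). All genes tested had a median of 0.024.

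A second measure came from genes with more than 1 probe set. Of the 46 genes, 14 had at least 2 probe sets that passed the cutoff, and in 8 of these all probe sets gave a difference of the same sign. Unrelated signs would also agree in many genes with 2 probe sets, and the share over all genes was not counted. In the fit of all 28193 probe sets, 0 of the 62 receptor probe sets passed an adjusted p under 0.05. In the fit by gene 0.0528% of all genes passed, so this count says little about the receptors. At an unadjusted p up to 0.05 there were 3, 1 higher and 2 lower in aged rats, where 7.80% of all probe sets had such a p. The weaker probe set of Chrm3 had signals of 285 ± 34.9 in aged rats and 368 ± 64.2 in young rats (SD, n = 6 each). This was a log2 fold change of -0.36 (SE 0.127, unadjusted p = 0.0156, adjusted p = 0.522). That difference had the sign of the brighter probe set of Chrm3 and was larger.

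For Adra2a both probe sets were also lower in aged rats, the weaker one by a log2 fold change of -0.62 (SE 0.319) with signals of 42.3 ± 19.0 in aged rats and 65.1 ± 22.6 in young rats. The probe sets of Drd1 gave -0.12 and -0.12, and those of Htr2c 0.23 and 0.39. Others disagreed: Adora2a gave -0.31 and 0.43, Hrh1 0.052 and -0.43, Hrh3 -0.068 and 0.21, and Drd4 0.11, 0.22 and -0.41. So did Adora1 with -0.0032 and 0.044, and Htr2a with 0.027, -0.018 and 0.13. The deposited annotation does not say which transcripts the probe sets of a gene detect, so a transcript that differs with age and a probe set that measures poorly cannot be told apart here.

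**Figure D3:**
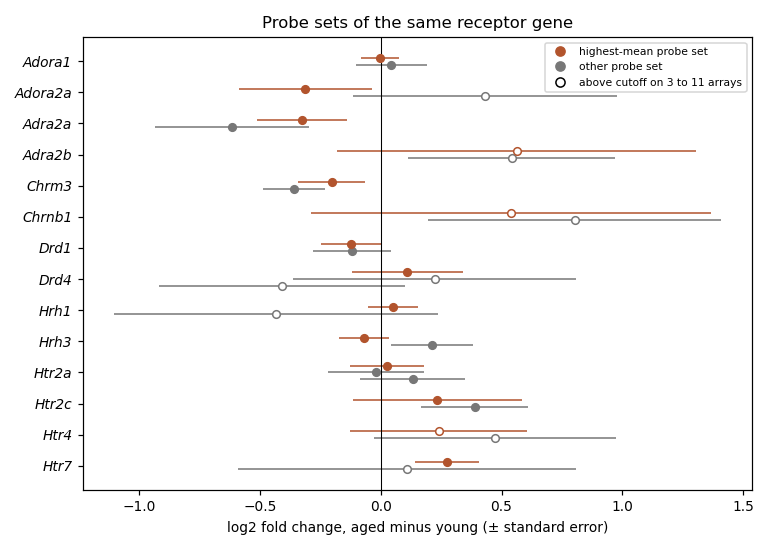
Log2 fold change of aged over young rats (x axis, bars are SEs) of each probe set that passed the cutoff, for the 14 receptor genes with at least 2; orange points are the probe sets with the highest mean, which represent the gene elsewhere, and grey points the others. The probe sets of Adra2a, Chrm3 and Drd1 lie on the same side of 0, while those of Adora2a and Drd4 lie on both sides.

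The bright receptor genes mostly had larger SDs among aged than among young rats. Of the 32 genes above the cutoff on all 12 arrays, 26 (81.25%) had the larger SD in aged rats, where 63.0% of all genes above it on all 12 arrays did. The median SD on the log2 scale was 0.35 in aged rats and 0.21 in young rats for the receptors, and 0.18 in aged rats and 0.15 in young rats over all genes. Without aged rats 2 and 6 the receptor medians were 0.30 in aged rats and 0.21 in young rats, and 22 of 32 genes (68.75%) had the larger SD in aged rats, where 43.6% of all genes did. The genes set beside the receptors were not matched to them in signal, and the receptors had the larger median SD in young rats as well. These are descriptions, with no test of the spread.

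The aged rats differed from one another in the level of the receptors as a whole. The mean deviation of the 32 genes from the young mean was 0.19 and 0.17 on the log2 scale in aged rats 2 and 5, and -0.12 and -0.11 in aged rats 4 and 6. In young rats it ran from -0.13 to 0.056. Since the reference is the mean of the young rats themselves, somewhat larger aged deviations would arise even at equal spread. Over all genes it was 0.010 to 0.083 in aged rats, highest in aged rat 6, and -0.014 to 0.023 in young rats. Families differed in this. Over the bright dopamine receptor genes (Drd1, Drd2 and Drd4) the mean deviation ran from -0.40 in aged rat 3 to 0.46 in aged rat 5, and from -0.27 to 0.14 in young rats. The beta-adrenergic genes had -0.47 to 0.35 in aged rats and -0.24 to 0.24 in young rats. The muscarinic genes spread more widely in young rats, -0.40 to 0.30, than in aged rats, -0.32 to 0.20. The number of the 56 genes above the cutoff was 39 to 44 in aged rats and 39 to 45 in young rats.

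**Figure D4:**
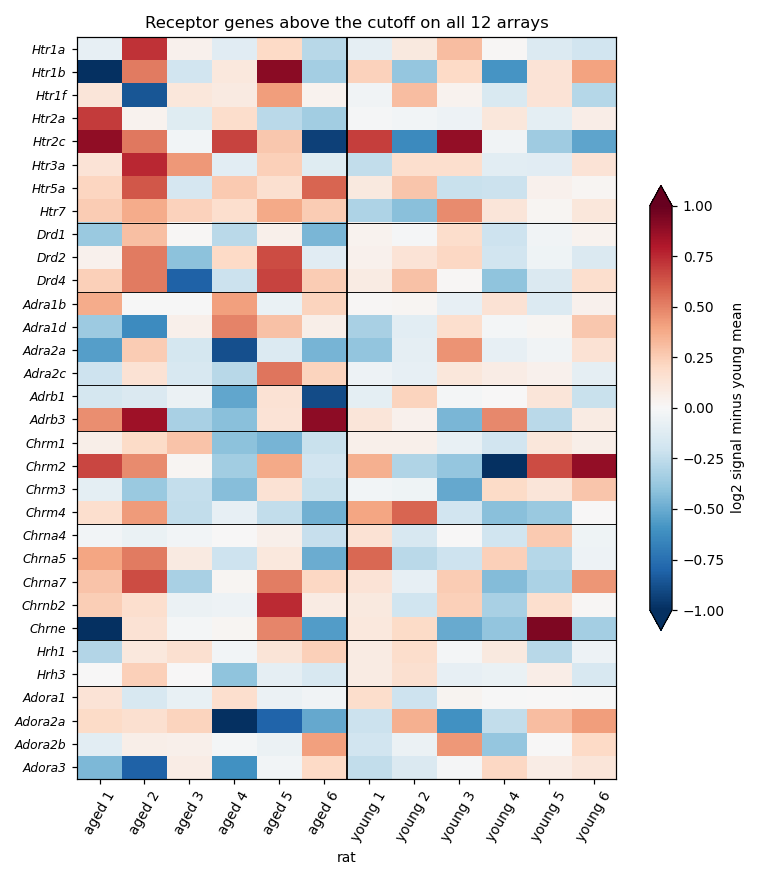
Log2 signal of each rat minus the mean of the young rats (colour, limited to 1 in either direction) for the 32 receptor genes above the cutoff on all 12 arrays, with aged rats left and young rats right and genes ordered by family. The aged columns hold stronger colours of both signs than the young ones, and those of aged rats 2 and 5 hold more positive values than that of aged rat 4. Subtracting the young mean favours weaker colours in the young columns.

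How large a difference these arrays could have missed follows from the intervals. The median SE was 0.192 over the 46 receptor genes, against 0.111 over all genes tested, and 0.156 against 0.0998 for those above the cutoff on all 12 arrays. For 21 of the 32 bright genes the whole 95% interval lay within a 1.5-fold difference in either direction, and for all 32 within a 2-fold difference. For the 14 dim genes this held for 0 and 2 genes, so differences of 2-fold were not excluded for the other 12. These bounds hold only for the brightest probe set of each gene. The weaker probe set of Adra2a, also above the cutoff on all 12 arrays, had a log2 fold change of -0.62 (SE 0.319) and is not covered by them.

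**Figure D5:**
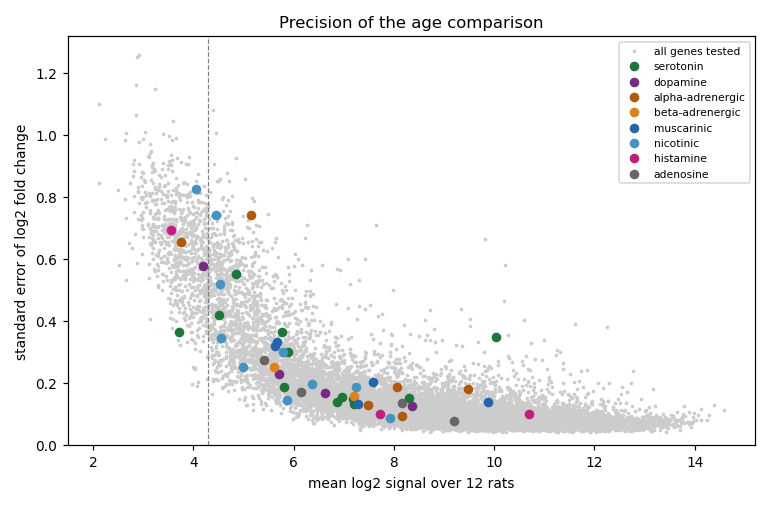
SE of the log2 fold change (y axis) against the mean log2 signal (x axis) of the 46 receptor genes, coloured by family, over all 13260 genes tested in grey. The receptors with the largest SEs lie near the cutoff of 4.3, and Adora1 has the smallest SE of the receptors, 0.0765.

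The genes that make, move and break down these transmitters and carry the receptors' signals were set beside them. Of 69 such genes on the array 68 were tested, 40 with values above 0 and 28 below, with a median of 0.021. At an adjusted p under 0.05, 1 was called, and at an unadjusted p up to 0.05, 5 were higher and 4 lower in aged rats (13.2%, where 9.1% of all genes tested had such a p). None of the counts compares these genes with others in a test.

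The gene that passed was Slc22a3, which encodes the low-affinity transporter that clears noradrenaline, dopamine, serotonin and histamine outside synapses. Its signals were 61.5, 74.7 and 118 in aged rats and 159, 188 and 242 in young rats, and every aged rat was below every young one. Slc22a3 fell by 1.30 on the log2 scale (SE 0.157, adjusted p = 0.0183). With a single rat left out the log2 fold change was -1.43 to -1.23, and the adjusted p was 0.0542 without young rat 1, 0.0517 without aged rat 3 and 0.0629 without aged rat 6. It was 0.0548 with the subject number as a block, 0.462 in the lower code series alone (log2 fold change -1.38) and 0.452 in the higher (-1.19). The receptors for these 4 transmitters showed no difference of that size on any gene above the cutoff on all 12 arrays, and the dim Htr1d had -1.07. Slc22a3 was among the 0.0528% of all genes tested that passed adjustment, so smaller values do not set the receptors apart.

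Maob, the monoamine oxidase found mainly in astrocytes and serotonin neurons, had signals of 2061, 2219 and 2691 in aged rats and 1596, 1939 and 2144 in young rats, and 5 aged rats were above all young ones (log2 fold change 0.29, SE 0.0871, adjusted p = 0.355). Qdpr regenerates the cofactor of the hydroxylases that make serotonin and the catecholamines and is also abundant in oligodendrocytes. Its signals were 5282, 6814 and 9508 in aged rats and 3914, 4786 and 6493 in young rats (log2 fold change 0.60, SE 0.163, adjusted p = 0.294). All 9 oligodendrocyte markers tested were above 0 as well (median 0.24), with a summed signal of 34436 to 56322 in aged rats and 33193 to 48624 in young rats, and their part in Qdpr was not tested.

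Among the genes that end receptor signalling, Rgs3 had signals of 479, 556 and 618 in aged rats and 382, 426 and 508 in young rats (log2 fold change 0.33, SE 0.0919, adjusted p = 0.304). Rgs7, a neuronal regulator of Go, had 3409, 3509 and 3851 in aged rats and 3709, 4010.0 and 4332 in young rats (log2 fold change -0.18, SE 0.0537, adjusted p = 0.344). The receptor kinase Grk4 had 94.6, 106 and 145 in aged rats and 61.6, 84.3 and 98.9 in young rats (log2 fold change 0.48, SE 0.148, adjusted p = 0.356). Maob, Qdpr, Rgs3, Rgs7 and Grk4 did not pass adjustment.

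By list, 4 of 9 synthesis genes, 6 of 10 transport genes and 5 of 6 breakdown genes had values above 0, as did all 8 genes of adenosine formation and clearance (median 0.13). The corresponding counts were 6 of 9 G protein alpha subunits, 5 of 7 receptor kinases and arrestins, 5 of 14 RGS proteins, which speed the return of G proteins to rest, and 1 of 5 genes of nicotinic receptor assembly. None of these lists other than transport held a gene at an adjusted p under 0.05.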

How the data were processed

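Signal intensities, as the authors deposited them, number 1 for each of 31099 probe sets on each of the 12 arrays. Per the methods signals were calculated with gcRMA, a scaling factor for a target of 500 is listed among the quality measures, and MAS5, GCRMA and R 2.7.1 appear in the submitters' processing notes without an order. After trimming 2% at either end every array averaged 500.1, so the values were taken as linear, whereas the planned tests had assumed log2 data, and were log2 transformed without further normalization. The platform annotation gave 1 symbol to 20843 probe sets, several to 425 and none to 9831, and only the first were tested by gene, using the brightest probe set on average. Limma 3.58.1 (lmFit, eBayes) in R 4.3.3, tested on simulated data, compared aged with young rats. Described individually were the 12 receptor genes with the smallest p, 14 cortical representatives of the families (some are in both sets), and pathway genes at an unadjusted p up to 0.01. The receptor genes, gene lists and tests were chosen with earlier results of these data known. Sample codes form a lower series (4 aged, 3 young) and a higher series (2 aged, 3 young) of unstated meaning. Alternatives covered normalization, cutoff, offset, probe set choice, variance model, array weights, code series, subject number and leaving out rats. The number of arrays limits the precision.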

Additional observations from a re-analysis of the deposited data

Results flagged for a closer look

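Chrm5 had a young rat far from the others of its group. Young rat 4 had a signal of 17.2, below the cutoff, while the other 5 young rats had 44.4 to 54.4, and the gap made up 0.822 of the group's range on the log2 scale, above Dixon's 95% critical value for 6 samples. The aged rats ranged over 34.8 to 92.6. Without young rat 4 the log2 fold change of Chrm5 was 0.29, in place of 0.54 over all 12 rats. For Rgs7, aged rat 5 had a signal of 3851, while the other 5 aged rats had 3409 to 3559, a gap of 0.648 of the range. Over the genes individually described, 58 groups of 6 rats were examined in this way, and chance marks about 1 in 20.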

How the results depend on the processing

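Under each of the 28 alternatives tried, limma or the methods' t-test called 0 receptor genes at an adjusted p under 0.05. Under these alternatives 0 to 18 of all genes tested were called, so a count of 0 among the receptors says little about them. The count of 1 receptor gene higher in aged rats at an unadjusted p up to 0.05 became 0 under quantile normalization, median centring, a cutoff of 5.5, an offset of 16, an intensity trend with robust variances, the methods' t-test, the lower code series alone, and without aged rats 2 and 6. It was 2 in the higher code series alone, and 0 to 2 with a single rat left out. The count of 1 lower gene became 2 under quantile normalization, median centring, the higher code series alone, without aged rats 2 and 6, and with every probe set on its own (an alternative added after seeing the data), 3 when probe sets were averaged, and 0 with the cutoff required on all arrays, a cutoff of 5.5, an intensity trend with robust variances, and the lower code series alone; it was 1 to 2 with a single rat left out. The median of the receptor genes was -0.014 under quantile normalization and -0.0078 under median centring, 0.088 in the higher and 0.027 in the lower code series, and 0.045 to 0.11 with a single rat left out.

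Of 805 values of the 29 genes described individually, 24 turned their sign and 6, all of Slc22a3, lost their call without turning it. Htr2a was -0.014 under quantile normalization, -0.044 under median centring, -0.0078 with the code series as a block, -0.34 in the higher code series, and -0.11 to 0.10 with a single rat left out. Adora1 was 0.021 with probe sets averaged, 0.032 with array weights, 0.018 in the lower code series, 0.043 without aged rats 2 and 6, and -0.045 to 0.033 with a single rat left out. Chrna4 was 0.0015 without aged rats 2 and 6 and -0.089 to 0.0027 with a single rat left out (the highest without young rat 5), Htr1a was -0.047 (without aged rat 2) to 0.15, and Hrh3 was 0.072 with probe sets averaged. In the higher code series Chrna1 was -0.34 and Htr2c -0.023, and in the lower series Drd2 was -0.041 and Chrm1 0.026. The cause of these changes was not tested.

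Subject numbers were not taken to pair the rats: same-numbered aged and young rats are different animals, the labels give the numbers no shared meaning, and the deviations of same-numbered rats correlated at -0.039 to 0.16, over 0.1 in 4 of 6 pairs. With the subject number as a replicate block, 0 receptor genes were called, 3 had an unadjusted p up to 0.05 in the higher direction and 2 in the lower, where 11.3% of all genes had such a p. Among the deviations 5 of 6 aged and 4 of 6 young rats correlated best with their own number, more than unrelated numbers would be expected to give. This is a hint from the data and not the design, and the main fit leaves it out.

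Signals near the cutoff limit what can be said: 10 of the 56 genes were not tested, and for 12 of the 14 dim genes the 95% interval reached beyond a 2-fold difference. Median centring shifted the median of all genes to -0.047, against 0.024 as deposited. Marker lists were given beside some genes, but cell type proportions were not estimated, and the behaviour of the rats was not analysed here.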

Other observations

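Another probe set is assigned by the annotation to both Tmigd3 and Adora3, and was left out of the test because it has several symbols. Its signals had a lowest, median and highest value of 7.17, 15.8 and 24.9 in aged rats, of which 2 were above the cutoff, and 0.428, 4.76 and 16.2 in young rats, of which 0 were. Its medians thus ran opposite to the log2 fold change of the tested Adora3 probe set.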
